A study of Mus musculus with 14 samples.

Results

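Neutrophils made up 2414 of the 75548 cells (3.20%) that passed the mitochondrial limit in 7 nodules derived from mice lacking Eif3e in activated B cells. A cell was taken as a neutrophil when at most 10% of its UMIs (unique molecular identifiers, each standing for 1 captured transcript) were mitochondrial and S100a8 and S100a9 together reached 5 UMIs. In addition, at least 2 of Retnlg, Csf3r, Cxcr2, Mmp8, Ly6g and Mmp9 had to be detected, with no UMI of Cd3d, Cd3e, Cd3g, Cd79a, Cd79b or Ms4a1. The cells were thus chosen by the measured levels of these genes, so the height of these genes in them is no result.

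All 7 mice, or for the nodules of mice 27 and 34 the mutant donors, carried the floxed Eif3e allele on both chromosomes together with Cγ1Cre. The background was C57BL/6J. This Cre is driven by transcription of the Ighg1 constant region and deletes in activated B cells, so neutrophils were not the targeted cells. The nodules of 5 mice were paired with a B cell receptor (BCR) library, namely liver of mouse 27 (12 months), lung of mouse 29 (12 months), spleen of mouse 31 (13 months), thymus of mouse 33 (16 months), and lung and thymus of mouse 34 (9 months). Those of 2 mice were paired with a T cell receptor (TCR) library, namely liver of mouse 30 (14 months) and spleen of mouse 32 (12 months). They are called BCR mice and TCR mice here. Mice 29, 31, 32 and 34 also carried the Rosa26-YFP reporter, whereas mice 27, 30 and 33 did not. Mice 27, 29, 30, 32 and 33 were female, and mice 31 and 34 male. The nodule of mouse 27 had grown after transfer into a Rag2-/- recipient, which lacks mature lymphocytes but keeps its own myeloid cells. Mouse 34 was a chimera of JHT and mutant bone marrow. In these 2 nodules, neutrophils of the recipient, of the co-transferred marrow and of the mutant donor cannot be told apart by genotype. No nodule or tissue of a control mouse was analysed here, so every comparison is among nodules of mutant mice or of recipients of their cells. Receptor group, site, age and reporter differ together. Nothing in the labels pairs a BCR mouse with a TCR mouse.

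Neutrophils are short-lived granulocytes that arise in the bone marrow. Promyelocytes fill azurophil granules with Mpo, Elane, Prtn3 and Ctsg. Myelocytes then make the specific granule proteins Camp, Ngp, Ltf and Lcn2 and stop dividing. Released, mature cells shut down most granule genes and express chemoattractant receptors such as Cxcr2 and, when activated, Il1b and chemokines. Order along this path can therefore be read from which granule transcripts are present.

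Neutrophils were plentiful in 3 nodules and rare in 4. Mouse 29 had a share of 11.5% (1612 cells, 95% exact binomial interval 10.9 to 12.0%), followed by mouse 30 with 3.58% (375 cells, 3.23 to 3.95%) and mouse 32 with 2.82% (377 cells, 2.55 to 3.11%). Mouse 34 had 0.247% (17 cells), mouse 27 had 0.117% (11 cells), mouse 31 had 0.114% (13 cells) and mouse 33 had 0.0901% (9 cells). Both TCR nodules thus lay between the highest and the lower BCR nodules, and 97.9% of all neutrophils came from mice 29, 30 and 32. The mean share was 2.40% ± 5.06 (SD, n = 5) in BCR mice and 3.20% ± 0.535 (SD, n = 2) in TCR mice. The difference of 0.794 percentage points was smaller than the spread among BCR mice (two-sided exact permutation test, p = 1, where the smallest p is 1 split of 21). Without mouse 29 the difference was 3.06 points (exact permutation test, p = 0.0667, the smallest p that its 15 splits allow). Without mice 27 and 34 it was -0.687 points.

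**Figure D1:**
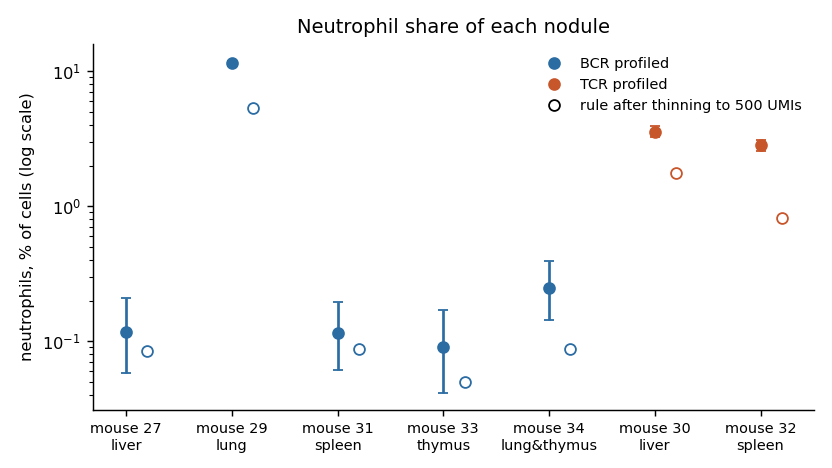
Neutrophils as percent of the cells past the mitochondrial limit in each nodule (log axis); filled points give the share with its 95% exact binomial interval and open points the share when the rule was applied to cells thinned to 500 UMIs. Mouse 29 is highest at 11.5%, mice 30 and 32 follow at 3.58% and 2.82%, and the other 4 lie at or below 0.247%.

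Depth per cell did not follow the order of the shares, but it bears on how much each nodule can show. Median UMIs per neutrophil were 1732 in mouse 30, 2018 to 4454 in the 5 BCR mice and 10029 in mouse 32. After thinning every cell to 500 UMIs, the rule kept 5.32%, 1.75% and 0.823% of the cells of mice 29, 30 and 32 and 0.0501 to 0.0880% in the other 4, which leaves the same 3 nodules on top. The neutrophils of mice 27, 31, 33 and 34 numbered 50 and held 144450 UMIs together. A gene at 0 in 1 of these 4 libraries may still be present at 61.5 to 138 CPM (UMIs of a gene scaled to 1e6 UMIs of the library's neutrophils), the limit set by 3 UMIs. Intervals and limits here cover counting error only. Just inside the S100a8 and S100a9 threshold lay 49 neutrophils with 5 to 9 UMIs, and 92 cells with fewer than 5 met every other condition. Of the neutrophils, 1021 had exactly 2 of the 6 further genes, while 893 cells with 1 and 379 cells with none were left out. Another 414 cells met all but the lymphocyte condition.

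The cells carried neutrophil genes that the rule did not use. Of 12 such markers, Ngp, Ltf, Lcn2, Wfdc21, Il1r2, Clec4d, Trem1, G0s2 and Hdc were higher than in the other cells of the same nodule in 7 of 7 libraries, and Camp, Slpi and Cebpe in 6 of 7. Lcn2, which binds bacterial siderophores, ranged from 2256 to 8723 CPM and G0s2, an inhibitor of lipolysis, from 1034 to 4850 CPM. The 15 genes that stood highest over the other cells in every nodule were Retnlg, Slfn4, S100a9, S100a8, G0s2, Lcn2, Il1f9, Wfdc21, Stfa2l1, Il1b, Cstdc4, Asprv1, Mmp8, C5ar1 and Ngp. Of these, Retnlg, S100a9, S100a8 and Mmp8 are genes of the rule, so their place in this order was set by the choice of cells. Among the 19600 genes with a UMI in neutrophils, 235 (1.2%) were at least 2-fold higher and 367 (1.87%) at least 2-fold lower than in the other cells in all 7 nodules (10 CPM added). These contrasts compare the chosen cells with the rest and are descriptions.

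Marker lists of other cells differed in height. The summed NK, hepatocyte, and mast cell or basophil lists reached at most 2.83, 1.89 and 7.05 CPM. The dendritic list reached 21.1 CPM and the T cell list 39.6 CPM. The macrophage list ran from 52.9 to 472 CPM, the erythroid list from 0 to 422, the eosinophil list from 0 to 150 and the platelet list from 0 to 42.2 CPM. The B cell list, which includes Igkc and Ighm, ran from 143 to 338 CPM. Mouse 33 stood apart, because its 9 cells held 4347 CPM of the monocyte list against 37.6 to 1237 CPM elsewhere, led by Fn1 (1415 CPM) and F13a1 (1353 CPM). The 13 cells of mouse 31 held 564 CPM of the list for stroma and epithelium, all of it Epcam. Only 6 of 2414 neutrophils (0.249%, 95% exact binomial interval 0.0913 to 0.540%) had a barcode called as a cell in the paired V(D)J library, 1 in mouse 30 and 5 in mouse 32, against 22.7% of the other cells. Pairs of libraries shared 96 to 286 barcodes, at most 2.28% of the smaller one, and 2 of the shared barcodes were neutrophils in both.

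Neutrophil transcripts were also counted in lymphocytes of the 3 rich nodules. At 500 UMIs per cell, 13.1%, 13.6% and 13.3% of lymphocytes (cells with a Cd3, Cd79 or Ms4a1 UMI) in mice 29, 30 and 32 had an S100a8 or S100a9 UMI, against 0.0863 to 0.235% in the other 4. Free RNA, doublets and the 414 cells left out by the lymphocyte condition were not separated here. Shares of neutrophils with a transcript are therefore given beside the share in these lymphocytes.

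Azurophil granule genes were higher in both TCR nodules than in the lung nodule of mouse 29, the well-sampled BCR nodule. The 250 bases upstream of Elane (neutrophil elastase), Prtn3 (proteinase 3) and Mpo (myeloperoxidase), which were high together in TCR mice, are shown first, with that of Ngp, a specific granule gene present in all 7 nodules, for contrast. They come from RefSeq on GRCm38.p6, read 5′ to 3′ on the plus strand up to the base before the annotated start of each gene. All 10 granule genes looked for had 1 entry. Capitals mark GAGGAA, a purine-rich core of the kind bound by PU.1, in the first 3, and TTGCNNAA, a half-palindrome of the kind bound by C/EBP factors, in Ngp.
Elane, chr10:79886062-79886311: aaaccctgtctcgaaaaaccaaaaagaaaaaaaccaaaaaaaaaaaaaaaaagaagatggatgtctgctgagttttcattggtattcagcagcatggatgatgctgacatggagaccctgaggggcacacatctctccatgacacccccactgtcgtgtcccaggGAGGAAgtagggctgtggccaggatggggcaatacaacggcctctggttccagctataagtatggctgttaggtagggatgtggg
Prtn3, chr10:79879417-79879666: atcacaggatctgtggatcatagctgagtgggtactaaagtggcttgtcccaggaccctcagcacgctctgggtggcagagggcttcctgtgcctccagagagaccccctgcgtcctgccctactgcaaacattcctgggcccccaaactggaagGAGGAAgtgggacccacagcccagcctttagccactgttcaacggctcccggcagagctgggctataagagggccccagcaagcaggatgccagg
Mpo, chr11:87793534-87793783: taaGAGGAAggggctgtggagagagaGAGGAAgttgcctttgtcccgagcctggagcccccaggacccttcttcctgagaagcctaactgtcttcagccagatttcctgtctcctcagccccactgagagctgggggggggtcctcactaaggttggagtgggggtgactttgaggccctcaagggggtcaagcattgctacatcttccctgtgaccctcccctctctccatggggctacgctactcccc
Ngp, chr9:110419558-110419807: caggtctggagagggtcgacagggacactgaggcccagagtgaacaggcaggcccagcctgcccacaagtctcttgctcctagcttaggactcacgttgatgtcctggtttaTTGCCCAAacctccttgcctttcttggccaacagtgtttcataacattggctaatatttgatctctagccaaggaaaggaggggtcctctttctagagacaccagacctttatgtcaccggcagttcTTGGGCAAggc
Both strands were searched, and the matches shown do not overlap one another. GAGGAA also lay upstream of Ctsg, Ltf and Lcn2, and TTGCNNAA upstream of Fcnb, Ltf and Lcn2, among the 10 granule genes. GAGGAA began 85 bases before the start of Elane, 95 before that of Prtn3 and 247 and 224 before that of Mpo. It lay in 23.3% of all 32851 promoters of this length. TTGCNNAA began 138 bases before the start of Ngp and, on the reverse strand, 11 bases before it. It lay in 9.56% of all promoters. A match is a description of letters and no evidence of binding. Elane and Prtn3 are neighbours on chromosome 10, with 3137 bases between the end of Prtn3 (79879667 to 79883174) and the start of Elane (79886312 to 79888216).

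Elane was at 0 CPM in the neutrophils of mice 27, 31, 33 and 34, and at 2.19, 328.5 and 726 CPM in mice 29, 30 and 32. Prtn3 was at 0 in the same 4 BCR mice, and at 13.8, 276 and 703 CPM in mice 29, 30 and 32. Mpo followed with 0 in these 4, and 0.439, 62.3 and 289 CPM. Both TCR nodules were above all 5 BCR nodules for each gene, without overlap. Of the 1084 genes tested on all 7 libraries (below), 4.8% had this order. Elane and Prtn3 entered that test through the TCR libraries alone, and Mpo was not tested there. The 4 poor libraries together had 0 azurophil UMIs, which by counting error alone allows up to 20.8 CPM over them. The Elane and Prtn3 levels of mice 30 and 32 lay above this limit. In mouse 30, however, only 9.07% of neutrophils (without thinning) had an azurophil UMI, so a library of 9 to 17 cells could hold no such cell. The values of 0 therefore do not show that these genes were absent there. The Mpo and Ms4a3 levels of mouse 30 (62.3 and 54.8 CPM) do not exceed the limit of every single small library. Summed over Mpo, Elane, Prtn3, Ctsg and Ms4a3, mouse 29 held 17.8 CPM, mouse 30 held 735 CPM and mouse 32 held 2100 CPM. The well-sampled mouse 29, with 4558509 neutrophil UMIs, therefore gives the firmest BCR value.

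The comparison of TCR with BCR mice was tested on UMIs summed over the neutrophils of each library. Only mice 29, 30 and 32 had the 20 neutrophils that the fit required, so it set the lung nodule of mouse 29, the 1 BCR library, against 2 TCR libraries. It has no spread among BCR mice, and the lone library is assumed to vary like the TCR libraries, so its calls compare these 3 nodules and not the 2 groups of mice. Of 12004 genes, 8 were higher (0.0666%) and 122 lower (1.02%) in mice 30 and 32 than in mouse 29 (edgeR quasi-likelihood test, Benjamini-Hochberg adjusted p under 0.05). The 8 were Elane, Mpo, Ms4a3, Hist1h2ag, Hist1h3c, Fcnb, Cebpe and Cdc25a. Elane rose by 7.39 ± 1.37 (SE) on the log2 scale (adjusted p = 0.0285), Mpo by 8.06 ± 1.49 (adjusted p = 0.0285) and Ms4a3 by 6.92 ± 1.29 (adjusted p = 0.0301). Fcnb, a ficolin of immature neutrophils, rose by 5.44 ± 1.11 (adjusted p = 0.0437), from 5.92 CPM in mouse 29 to 442 and 289 CPM. Cebpe, the transcription factor needed for specific granules, rose by 4.75 ± 0.98 (adjusted p = 0.0439), from 3.51 CPM in mouse 29 to 110 and 159 CPM. The remaining BCR mice held 0 to 75.2 CPM of Cebpe, each from at most 2 UMIs. Hist1h2ag and Hist1h3c encode replication-dependent histones, and Cdc25a is a phosphatase that drives the cell cycle. With cells holding a C1q or Csf1r UMI left out, Elane was the 1 gene still called higher, and Mpo stood at 8.02 (adjusted p = 0.0834) and Ms4a3 at 6.84 (adjusted p = 0.0833). Fcnb and Cebpe also missed the threshold with DESeq2 size factors (adjusted p = 0.0586 and 0.0591). Prtn3 (log2 change 4.65 ± 1.18, adjusted p = 0.0943) and Ctsg (6.83 ± 1.71, adjusted p = 0.0931) did not pass, although Prtn3 passed by DESeq2 (adjusted p = 0.000393). Mpo, Ms4a3, Ctsg, Hist1h2ag and Cdc25a had passed the filter on low counts through the TCR libraries alone, so these genes could enter the test only by being high there. Of the 10 specific granule genes 1 was called, with a median log2 change of 0.62 beside 0.13 over all genes.

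A fit on all 7 libraries, added after the data were seen, tested 1084 genes. Here 9 were higher in TCR mice (0.83%) and 0 lower by edgeR at the adjusted threshold, with 110 genes (10.1%) at an unadjusted p under 0.05. DESeq2 on the same libraries called 10 higher and 9 lower. Elane rose by 8.09 ± 0.74 (adjusted p = 5.34e-05), Fcnb by 6.32 ± 0.78 (adjusted p = 0.000673) and Prtn3 by 5.68 ± 0.71 (adjusted p = 0.000673). With 4 BCR libraries at 0, these fitted folds depend on the prior count of the fit and are no bounds. All 3 genes had passed the filter through the TCR libraries alone, so their direction was fixed by the filter. The same holds for Hist1h2ap, Hist1h4i, Gm10282 and Abca13, but not for Camk1d and Hmgn2. With no filter, Elane and Fcnb were called as well. The Prtn3 call was lost by DESeq2 (adjusted p = 0.384) and without mouse 32 (adjusted p = 0.189). Histone genes Hist1h2ap (4.29 ± 0.75) and Hist1h4i (3.61 ± 0.63) also rose, both with adjusted p = 0.0108, as did Gm10282 (3.40 ± 0.58, adjusted p = 0.0108). Camk1d, a calcium-dependent kinase, rose by 3.03 ± 0.56 from 385 ± 162 CPM (SD, n = 5) to 2574 ± 1215 CPM (SD, n = 2). Abca13, a transporter, rose by 2.70 ± 0.50, and Hmgn2, a nucleosome-binding protein, by 2.60 ± 0.53. Of 15 alternatives, Abca13 lost its call in 8 and Hmgn2 in 7, both among them without mouse 32 (adjusted p = 0.588 and 0.176). Without mouse 30 the calls of Camk1d, Gm10282 and Hist1h4i were lost (adjusted p = 0.0855, 0.202 and 0.233). Elane and Fcnb were called in both fits. Hist1h genes are near-identical copies, so reads may be split among them.

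**Figure D2:**
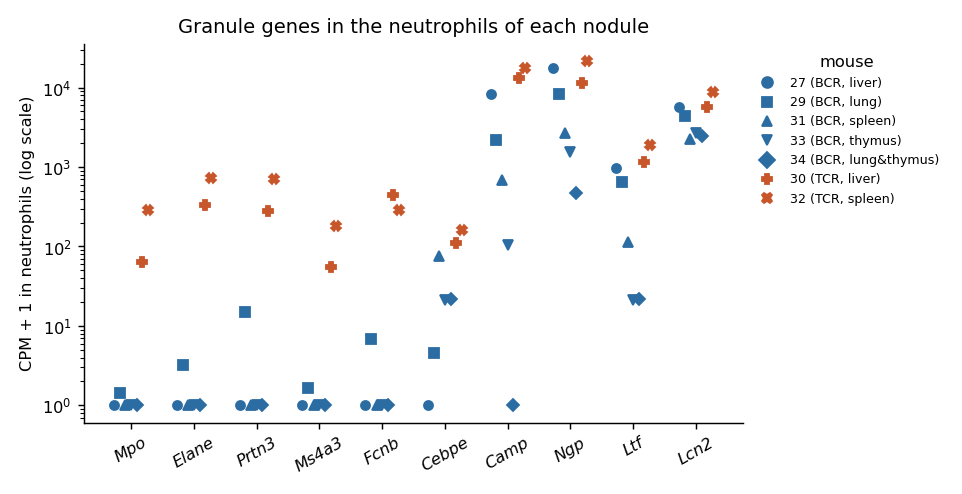
CPM plus 1 (log axis) of granule genes in the summed neutrophils of each nodule, blue for BCR and orange for TCR mice; a point at 1 is a gene with no UMI. Mpo, Elane, Prtn3, Ms4a3 and Fcnb are at most 13.8 CPM in all 5 BCR mice and between 54.8 and 726 CPM in both TCR mice, while Camp, Ngp, Ltf and Lcn2 spread widely within BCR mice.

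Specific granule genes varied more within the BCR group. Camp, the cathelicidin precursor, was at 8208, 2206, 677, 103 and 0 CPM in the BCR mice 27, 29, 31, 33 and 34, against 13266 and 17432 CPM in the TCR mice 30 and 32. Both TCR values lay above all BCR values, with mouse 27 the nearest. The change in the 7-library fit was 3.05 ± 1.29 and did not pass (adjusted p = 0.433). Ngp, neutrophilic granule protein, overlapped between groups, with 17800 CPM in mouse 27 between the 11402 and 21481 CPM of the TCR mice. Its change was 1.66 ± 0.95 (adjusted p = 0.556). Of the 10 genes of this list, 4 (Camp, Ltf, Lcn2 and Fcnb) were higher in both TCR mice than in every BCR mouse, where 4.8% of all tested genes were. The lead of Lcn2 was narrow, 5642 CPM in mouse 30 against 5626 in mouse 27.

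Counted per cell at 500 UMIs, 20.2% of neutrophils in mouse 32 had a UMI of an azurophil gene (95% exact binomial interval 16.2 to 24.6%), against 4.64% of lymphocytes of that nodule. In mouse 30 the share was 3.47% (1.86 to 5.86%) against 0.613% of lymphocytes, and in mouse 29 it was 0.372% (0.137 to 0.808%) against 0.130%. Without thinning the neutrophil shares were 57.8%, 9.07% and 2.79%. A UMI of Camp, Ngp or Ltf was found in 90.5% of neutrophils of mouse 32, 24.3% of mouse 30 and 40.3% of mouse 29, against 9.88%, 5.94% and 3.6% of lymphocytes. Mouse 30, whose summed Camp and azurophil levels lay above those of mouse 29, thus had a lower share of cells with Camp, Ngp or Ltf than mouse 29. In mouse 27 the share was 45.5% of 11 cells (16.7 to 76.6%), and in mouse 34 it was 5.88% of 17 cells (0.149 to 28.7%).

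**Figure D3:**
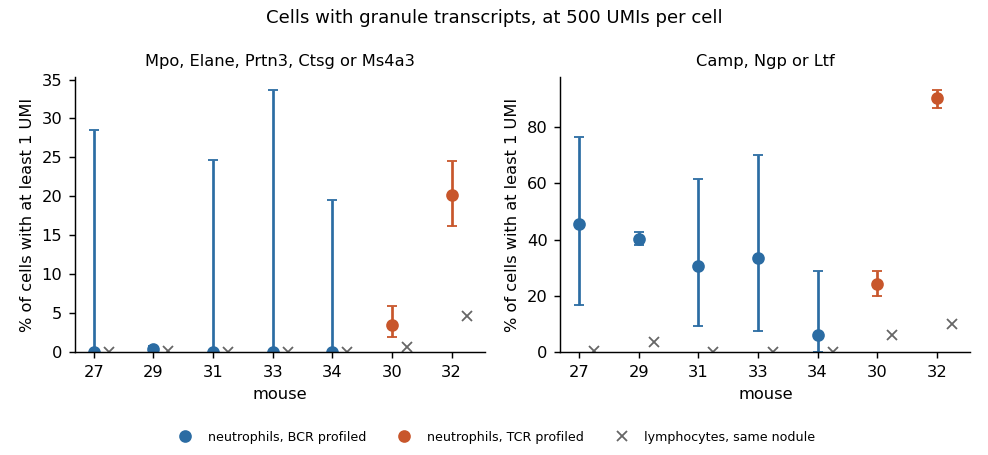
Percent of neutrophils with at least 1 UMI of an azurophil gene (left) or of Camp, Ngp or Ltf (right) in each nodule, at 500 UMIs per cell, with 95% exact binomial intervals; crosses give the lymphocytes of the same nodule. Azurophil transcripts reach 20.2% in mouse 32 and 3.47% in mouse 30, each above its lymphocytes, and the intervals of the 4 small libraries are wide.

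Proliferation genes overlapped between the groups. The 10-gene list (Mki67, Top2a and others) summed to 974 CPM in mouse 30 and 1356 CPM in mouse 32, against 94.1 CPM in mouse 29. Mice 31 and 34 held 113 and 63.3 CPM, from 3 UMIs each. Mouse 27 held 415 CPM from 9 UMIs, with 9 of the 10 genes at 0. Mouse 33 held 1210 CPM, above mouse 30, from 59 UMIs in the 9 cells that also held monocyte markers. The overlap of the summed list thus rests on mouse 33 alone. In the 3-library fit, all 10 genes had a positive log2 difference between mice 30 and 32 and mouse 29, with a median of 3.03 beside 0.13 over all genes, and 0 passed at the adjusted threshold by edgeR. All 10 had an unadjusted p under 0.05, as did 12.7% of all genes. Rrm2, a subunit of ribonucleotide reductase, came nearest (adjusted p = 0.0518), at 62.3 and 158 CPM in TCR mice, 2.41 CPM in mouse 29 and 0 in the other BCR mice.

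Within a nodule, neutrophils with a Camp, Ngp or Ltf UMI differed from those without. This split uses the granule genes themselves and is a description of cells of 1 nodule at a time. In mouse 30, the 91 cells with such a UMI had 10016 CPM of Lcn2 against 688 in the 284 cells without, 1369 against 18.1 CPM of the azurophil list and 1786 against 54.4 CPM of the proliferation list. Il1b ran the other way, with 803 CPM in cells with and 2136 CPM in cells without granule transcripts. Wfdc17, an antiprotease-like protein of activated myeloid cells, stood at 201 against 1482 CPM. Csf3r, the G-CSF receptor, stood at 217 against 1490 CPM, but it is a gene of the rule, so the choice of cells shapes this value. Il1b, Cd274 and Wfdc17 were lower in the cells with granule transcripts in mice 29, 30 and 32 alike. In mouse 32 the azurophil list was higher in the 36 cells without Camp, Ngp or Ltf (4106 CPM) than in the 341 with them (1906 CPM), the reverse of mouse 30. Median UMIs per cell differed between the classes as well, 4036 against 1477 in mouse 30, 3054 against 1973 in mouse 29 and 10372 against 7219 in mouse 32, and the part of depth in these contrasts was not tested.

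**Figure D4:**
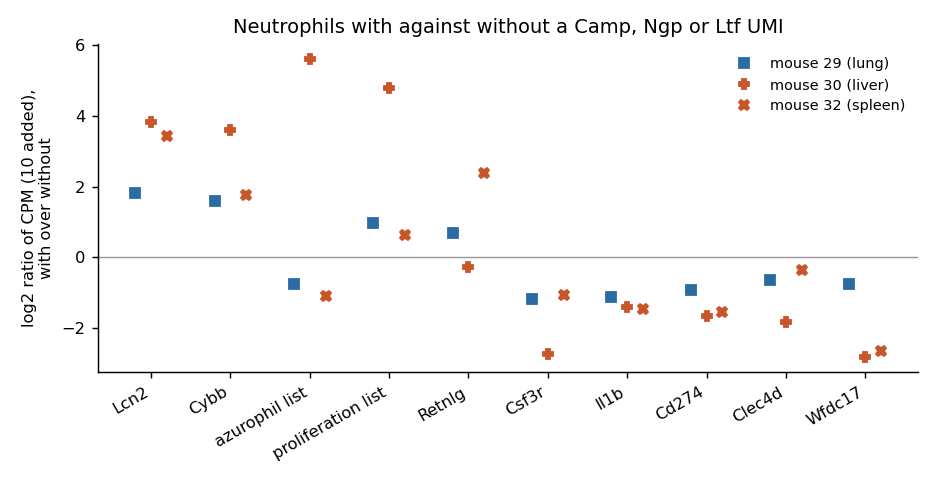
Log2 ratio of CPM (10 CPM added) of neutrophils with over those without a Camp, Ngp or Ltf UMI, for mice 29, 30 and 32; list values are sums over the genes of the list. Retnlg and Csf3r are genes of the rule. Lcn2 and Cybb lie above 0 and Il1b, Cd274, Clec4d and Wfdc17 below 0 in all 3 nodules, whereas the azurophil list is above 0 in mouse 30 and below 0 in mice 29 and 32.

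Il1b was lower in both TCR nodules than in every BCR nodule, as were 9.78% of the 1084 genes tested on all 7 libraries. The summed list of secreted cytokines overlapped, with 9476 CPM in mouse 30 above the 9039 and 9289 CPM of mice 27 and 33. Il1b, the inflammasome-processed interleukin, was at 3136, 2506, 13611, 4983 and 19135 CPM in mice 27, 29, 31, 33 and 34, and at 1428 and 780 CPM in mice 30 and 32. The difference was -2.66 ± 0.89 on the log2 scale in the 7-library fit and did not pass (adjusted p = 0.257). At 500 UMIs per cell, 45.6% of neutrophils in mouse 30 and 24.7% in mouse 32 had an Il1b UMI, against 49.4% in mouse 29 and 54.5 to 100% in the small BCR libraries. Lymphocytes of the same nodules had it in 0.165 to 2.64%. Cxcl2, the ligand of the neutrophil receptor Cxcr2, overlapped between groups, from 3507 CPM in mouse 33 to 40105 in mouse 34, against 6228 and 2427 CPM in TCR mice (adjusted p = 0.557).

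The part of these transcripts that neutrophils held varied widely between nodules. They held 67.5% of all Il1b UMIs and 61.5% of all Cxcl2 UMIs in mouse 29, being 11.5% of its cells. In mice 30 and 32 they held 46.9% and 46.1% of Il1b and 43.0% and 50.8% of Cxcl2. In mouse 34, 17 cells held 61.8% of the Il1b UMIs of the nodule, and 34.1% of its Cxcl2 UMIs. In mice 27, 31 and 33 neutrophils held 4.06 to 9.97% of Il1b and 3.45 to 4.39% of Cxcl2. For Elane the pattern differed, since neutrophils held 16.6% of its UMIs in mouse 30 and 8.52% in mouse 32. Most Elane UMIs of these nodules were thus outside the cells chosen here.

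Of the 122 genes called lower in TCR mice in the 3-library fit, those of smallest p included Sparcl1, Fmo2, Scgb1a1, Mgp, Serping1, Aebp1, Sftpa1, Bgn and Cald1. Each of these named genes had passed the filter on low counts through the library of mouse 29 alone. Their direction was thus fixed by the filter. Scgb1a1 and Sftpa1 mark lung epithelium, and Mgp and Sparcl1 stroma and vessels. Scgb1a1 was at 916 CPM in neutrophils of mouse 29 and 0 in those of the 6 other nodules, while the other cells of that lung nodule held 1551 CPM. In mouse 29, 106 of the 122 genes were lower in neutrophils than in the other cells of the nodule, including those named here. Over the 122 genes the neutrophil UMI share was 1.12% and that of the other cells 3.22%. The lung site and the BCR group cannot be told apart in this fit, and the part of free lung RNA was not tested.

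The 16 called genes that were higher in neutrophils than in the other cells of mouse 29 included Cxcl3, Cd80, Slc11a1 and Nos2. Cxcl3, a chemokine for Cxcr2, was at 1403 CPM in mouse 29 against 53.8 and 18.1 CPM in TCR mice (log2 change -5.81 ± 1.10, adjusted p = 0.0314). It was at 274 CPM in mouse 34 and 0 in mice 27, 31 and 33, and the 7-library fit gave -3.34 ± 1.58 and no call (adjusted p = 0.488). Cd80, a costimulatory ligand, was at 138, 389, 376, 123 and 232 CPM in mice 27, 29, 31, 33 and 34, against 49.1 and 36.9 CPM in mice 30 and 32. It fell by 3.68 on the log2 scale in the 3-library fit (SE 0.78, adjusted p = 0.0480; 0.0842 without cells holding a C1q or Csf1r UMI), and its 7-library value was -2.39 ± 0.63 (adjusted p = 0.150). Slc11a1, a phagosomal metal transporter, showed the same order, with 138 to 225.6 CPM in BCR mice and 32.1 and 17.5 CPM in TCR mice.

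Across all 7 libraries, 106 genes (9.78%) were lower in both TCR mice than in every BCR mouse, and 0 of them passed by edgeR. Of the 1084 genes, 563 had passed the filter through BCR libraries alone and 42 through TCR libraries alone, so more genes could be lower than higher. The nearest 5 were Ninj1, Cd80, Ccrl2, Nlrp3 and Slc11a1, all of the former kind. Ninj1, which ruptures the membrane of dying cells, was at 373 ± 141 CPM (SD, n = 5) in BCR mice and 52.6 ± 13.7 CPM (SD, n = 2) in TCR mice (log2 change -2.53 ± 0.56, adjusted p = 0.0559). It passed by DESeq2 on the same libraries (adjusted p = 0.000221) and without mouse 29 (adjusted p = 0.0350). Nlrp3, the inflammasome sensor, was at 1055 ± 651 and 127 ± 44.5 CPM (-2.77 ± 0.76, adjusted p = 0.162). Ccrl2, an atypical chemokine receptor, was at 1463 ± 737 and 202 ± 13.7 CPM (-2.53 ± 0.68, adjusted p = 0.150). On the other side, the nearest 5 without a call were Dach1, Gadd45g, Pde4d, Rhob and Tnfaip6, with Dach1 at 2.28 ± 0.50 (adjusted p = 0.0559). All of them but Rhob had passed the filter through the TCR libraries alone, so they could enter the test only by being high there.

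**Figure D5:**
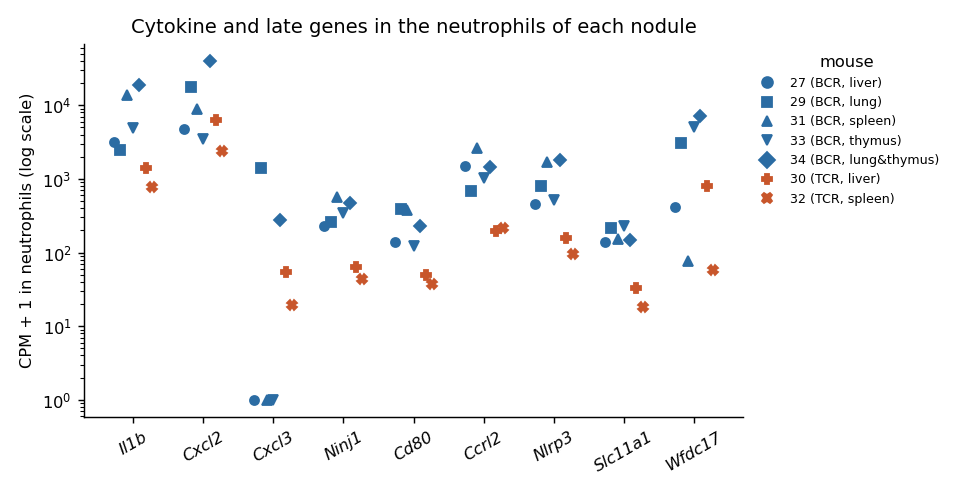
CPM plus 1 (log axis) of cytokine and late neutrophil genes in the summed neutrophils of each nodule, blue for BCR and orange for TCR mice; a point at 1 is a gene with no UMI. Il1b, Ninj1, Cd80, Ccrl2, Nlrp3 and Slc11a1 are lower in both TCR mice than in all 5 BCR mice, whereas Cxcl2, Cxcl3 and Wfdc17 overlap.

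The other gene lists gave 0 calls in the 7-library fit, where edgeR called 0.83% of genes higher and 0% lower. Their counts without overlap stand beside 9.78% of all genes lower and 4.8% higher, and many members passed the filter through 1 group alone, so they are descriptions. Of 10 late neutrophil genes tested, 3 (Slpi, Hdc and Msrb1) were lower without overlap and the median log2 difference was -1.004, beside -0.01 over all 1084 genes. Wfdc17 was lowest in both spleen nodules, 75.2 CPM in mouse 31 and 57.9 in mouse 32, and highest in mouse 34 with 7173 CPM. Of 5 chemoattractant receptors tested, Cxcr4, the marrow retention receptor, and Ptafr, the receptor of platelet-activating factor, were lower without overlap, and the median was -0.52. All 8 cytokine receptors tested had a negative sign, with a median of -0.74 and 1 without overlap. So had all 9 Fc and pattern receptors, with a median of -0.60, led by the adaptor Tyrobp at 2046 to 5169 CPM in BCR mice against 1121 and 1253 CPM. Over all 1084 genes, 547 had a negative sign. Csf2rb, Ifnar1, Ifnar2, Ifngr1, Ifngr2, Tnfrsf1a, Tnfrsf1b, Clec4d, Fcgr3, Tlr2 and Pirb had passed the filter through BCR libraries alone. The filter thus favoured a negative sign for these receptors, whereas Tyrobp passed through either group. Of 7 adhesion genes, Cd44 was the 1 lower without overlap, at 830 to 1777 CPM against 402 and 403 CPM. Of 6 tested presentation genes, Cd74, Cd80 and H2-D1 were lower without overlap. The 6 survival genes had a median of -0.75 and none without overlap, Mcl1 being the most abundant at 984 to 3333 CPM in BCR mice and 1336 and 785 CPM in TCR mice.

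NADPH oxidase subunits, which make the respiratory burst, had a median log2 difference of 0.17 over 6 genes. Glycolysis and hypoxia genes had a median of -0.19 over 10 tested, with Ero1l higher without overlap, at 251 and 469 CPM against 0 to 225 CPM. Of 5 genes tested from the list for tumour-associated neutrophils, Cd274 (PD-L1) was lower without overlap, at 620 ± 146 CPM in BCR mice and 219 ± 111 CPM in TCR mice (adjusted p = 0.481). Arg1 was at 7.24 CPM in mouse 29 and 0 in the 6 other nodules, and Siglecf was at 150 CPM in mouse 31, from few UMIs, and at most 3.84 CPM elsewhere.

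Interferon response genes set single nodules apart rather than groups. Of 6 tested, 0 were without overlap and the median was 0.06. Mouse 33 was highest for Ifitm3 (3076 CPM), Gbp2 (841 CPM) and Gbp5 (718 CPM), the same 9 cells that held monocyte markers. Mouse 30 was highest for Slfn4 with 2580 CPM, against 376 to 1374 CPM elsewhere. Its Ifit1 (148 CPM) and Rsad2 (243 CPM) exceeded those of mouse 32 (9.82 and 21.1 CPM) although both are TCR mice. The summed interferon list was higher in the other cells of mouse 30 (7908 CPM) than in its neutrophils (5793 CPM). In mouse 32 the other cells held 1540 CPM and the neutrophils 2562 CPM. The part of free RNA in these values was not tested.

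By site, the spleen nodules of mice 31 and 32 were compared with the others. In the 3-library fit edgeR called 0 of 12004 genes, with 780 (6.5%) at an unadjusted p under 0.05, and DESeq2 called 69. In the 7-library fit edgeR called 0 of 1084, with 37 (3.41%) at an unadjusted p under 0.05. Of these 1084 genes, 19 (1.75%) were higher and 51 (4.7%) lower in both spleen nodules than in every other nodule. The nearest lower 5 were Wfdc17, Emilin2, Basp1, Ifitm1 and St3gal5. Ifitm1 was at 414 and 99.3 CPM in the spleen nodules and at 415 to 3080 CPM in the other five. The higher 5 were Rpl22, Dgat2, Ybx1, Eif3a and Ndufa2.

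Whether the TCR against BCR difference was particular to neutrophils was asked against C1q-negative monocytes of mice 29, 30 and 32 (179, 57 and 171 cells with Lyz2 and at least 2 monocyte genes). With mouse as a block, edgeR called 0 of 12365 genes for the difference of effects, with 527 (4.26%) at an unadjusted p under 0.05, and DESeq2 called 0. The fit has 1 residual degree of freedom. The difference was not detectable for Elane (log2 5.76, adjusted p = 0.951) or Cd80 (-3.03, adjusted p = 0.929), so neither pattern is shown to be limited to neutrophils.

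Ligands that recruit neutrophils were read in the other cells of each nodule. Cxcl1 was at 503 CPM in the lung nodule of mouse 29, which had the most neutrophils. Mice 30 and 32, next in neutrophil share, had the lowest values, 3.41 and 1.86 CPM. Mice 27, 31, 33 and 34, with few neutrophils, held 5.15 to 31.1 CPM, so Cxcl1 did not follow the order of the shares. Cxcl2 was at 1100 CPM in mouse 29, 481 in mouse 30 and 53.2 to 93.6 CPM in the rest, and the part of free neutrophil RNA in this value was not tested. Il17a was highest in mouse 34 with 11.2 CPM, against 0.0401 to 2.75 CPM elsewhere. Csf3, which encodes G-CSF, stayed at or below 1.87 CPM in the other cells of all 7 nodules.

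Eif3e itself was read as a share of all eIF3 subunit UMIs. In neutrophils it was 4.64% (95% exact binomial interval 3.94 to 5.43%) in mouse 29, 3.49% (2.23 to 5.19%) in mouse 30 and 4.12% (3.68 to 4.59%) in mouse 32. The other cells of these nodules gave 6.57%, 6.27% and 5.38%. The share in neutrophils was below that of the other cells in all 7 nodules, but mice 31 and 34 had 0 of 23 and 0 of 43 UMIs, which allow up to 13.0% and 6.98%. In mouse 27, the neutrophils held 3 Xist and 3 Y-linked UMIs, whereas the other cells held 26613 Xist and 311 Y-linked UMIs. The origin of these 11 cells was not tested.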

How the data were processed

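Nodules of 7 mice were dissociated by the authors and profiled by droplet single-cell RNA sequencing, with a paired V(D)J library from each. The deposited matrices hold UMI counts per gene and cell for 77442 barcodes and 32285 genes, raw and not normalized, with at least 500 UMIs in each cell. The V(D)J tables hold UMI counts per contig, which the authors made with SeekSoulTools. Per the labels, builds GRCm38 and mm10 were named in the submitters' processing notes. The aligner, annotation and cell calling of the RNA libraries are not given in the sources used here. The labels name a 5′ kit and the study's methods a 3′ kit, so which transcript end was read is not settled. Library totals ranged from 19264039 to 123456962 UMIs.

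The members and the gene lists were chosen with earlier results of these data known. No doublet caller was run, and cells with lymphocyte UMIs were left out by the rule. Neutrophil UMIs were summed per mouse and tested with edgeR 4.0.16 (TMM scaling, filterByExpr, quasi-likelihood test, Benjamini-Hochberg threshold 0.05), in libraries with at least 20 neutrophils. Fits on all 7 libraries were added after the data were seen, because the minimum left 1 BCR library. DESeq2 1.42.0 served as the alternative. Standard errors are the absolute log2 change over the root of the F statistic. Shares were compared by exact permutation over mice. The fit was tested on simulated counts with 200 changed genes. Mice are the replicates, 5 BCR and 2 TCR. To compare cells of unequal depth, each was thinned to 500 UMIs at random. Other cells are all cells of a nodule that passed the mitochondrial limit and did not meet the rule. Sequences are from RefSeq (GRCm38.p6). Named genes were the called members of each list with members of highest level, up to 10 called genes per direction of each fit, or the 5 of smallest p without overlap where none was called, and the 15 leading genes. Clec7a, Mx1 and Aldoa, which the lists name, were not analysed here. Some genes that this rule or the lists name are not reported here.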

Additional observations from a re-analysis of the deposited data

Results flagged for a closer look

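Among 19 measures over the 5 BCR mice, 3 had 1 mouse farther from the others than Dixon's 95% critical value of 0.71 for 5 samples, and chance flags about 1 in 20. The neutrophil share of mouse 29 was 11.5%, with the next at 0.247%. The summed azurophil list was 17.8 CPM in mouse 29 and 0 in the other 4 BCR mice, whose limits of 61.5 to 138 CPM lie above that value. The summed Fc and pattern receptor list was 15612 CPM in mouse 34, led by Tyrobp (5169 CPM) and Clec4e (2215 CPM), with the next mouse at 10227 CPM.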

How the results depend on the processing

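The TCR minus BCR difference in neutrophil share kept its sign except without mice 27 and 34, where it was -0.687 percentage points. Leaving out 1 mouse gave 0.216 to 3.06 points, and the other rules and denominators gave 0.163 to 4.53. The 3-library count of 130 calls was 198 by DESeq2, 422 with no filter on low counts, 249 with at least 10 S100a8 and S100a9 UMIs, 39 without cells holding C1q or Csf1r UMIs, 282 after thinning to the smallest library and 9 on all 7 libraries. Of those 39, 1 was higher. The 7-library count of 9 was 19 by DESeq2, 473 with no filter, 16 without cells holding C1q or Csf1r UMIs and 124 without mice 27 and 34. Leaving out 1 mouse gave 8 to 130 calls, namely 50, 14, 54, 130, 61, 9 and 8 without mice 27, 29, 31, 33, 34, 30 and 32. Without mouse 27, 31, 33 or 34 between 6375 and 6598 genes passed the filter instead of 1084. Elane, Fcnb and Hist1h2ap were called under all 15 of these alternatives, but they had passed the 7-library filter through the TCR libraries alone. The calls of Prtn3, Camk1d, Abca13, Hmgn2, Gm10282 and Hist1h4i were lost under at least 1 alternative. Prtn3 was lost by DESeq2 and without mouse 32. Of 322 values under alternatives, for 30 pairs of a named gene and a fit, 0 changed sign, 37 lost and 8 gained the call. Many of these genes had passed the filter through 1 group alone, which favours a kept sign. The spleen comparison's 0 calls became 69 by DESeq2 and 168 with no filter. For the difference from monocytes, 0 calls became 24 with no filter and stayed 0 with no replicate block. No paired analysis was possible for the other comparisons because BCR and TCR mice share no number. In the 3-library fits, leaving out a mouse or adding spleen as a covariate leaves no residual degrees of freedom, and leaving out mice 27 and 34 changes nothing, so these were not run. The spleen fit was not repeated without single mice. The macrophage alternative was not run, since mice 30 and 32 have 2 and 18 such cells. The causes of these changes were not tested. The 50 neutrophils of mice 27, 31, 33 and 34 limit every BCR value other than that of mouse 29.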
